A study of Danio rerio with 15 samples.

Results

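The 10 genes described here are glucocorticoid-responsive genes other than fkbp5: klf9, sgk1, tsc22d3, cebpb, cebpd, hsd11b2, hsd20b2, glula, angptl4 and errfi1a. Their probe sets were taken as every probe set whose single gene symbol was one of these names, which gave 13 probe sets for 10 genes, out of 15502 probe sets and 8793 named genes on the array. The genes cebpd, hsd20b2 and errfi1a had 2 probe sets each, and the others had 1. Because the genes were chosen with earlier results of these data known, their counts beside those of all probe sets are descriptive only. Expression was measured on 15 one-colour Affymetrix arrays, each from pooled whole zebrafish larvae; every group had 3 beakers of about 100 larvae, and an array is taken here to stand for a beaker. From 72 h after fertilisation all larvae were kept unfed for 96 h in the same made-up fish water, and so were 7 days old at the end. The control beakers held no drug, and the other groups held fluoxetine at 25 µg/L, fluoxetine at 250 µg/L, sertraline at 25 µg/L or sertraline at 250 µg/L, with 3 arrays in each of the 5 groups. Both drugs are antidepressants that block the reuptake of serotonin. No strain was named in the labels.

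In zebrafish, cortisol is the main glucocorticoid and is made by the interrenal cells under control of the brain and pituitary. It binds the glucocorticoid receptor, encoded by nr3c1, which then enters the nucleus and binds DNA near its target genes. Among the targets, fkbp5 feeds back on the signal, as it encodes a co-chaperone that lowers the receptor's affinity for cortisol. The target tsc22d3 encodes a leucine zipper protein known in mammals to hold back inflammatory transcription factors. Others encode transcription factors (klf9, cebpb, cebpd), a kinase of ion transport and survival signalling (sgk1) or metabolic proteins (glula, angptl4). The enzymes encoded by hsd11b2 and hsd20b2 act in sequence in zebrafish to convert cortisol to cortisone and then to 20β-hydroxycortisone, an excreted form.

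Values are on a log2 scale as the authors deposited them. A difference of 1 is therefore a 2-fold change. Probes bind with different strength, so signals of different probe sets were ranked only to mark low signal, and they do not order the transcripts by abundance. Differences carry the standard error (SE) of a limma fit to all 15 arrays, with 1 spread per probe set shared by all groups. Its p-values were adjusted by the Benjamini-Hochberg method over all 15502 probe sets, and an adjusted p under 0.05 counted as passing. Of the 13 probe sets, 8 lay above the level of 3.90 under which 40% of all probe sets had their mean. The other 5 (both of hsd20b2, both of errfi1a and the dimmer one of cebpd) lay below it. The arrays of fluoxetine at 25 µg/L scattered more than the others: each correlated with the other arrays of its group at a mean r of 0.986 to 0.989 across probe sets, against 0.9947 to 0.9967 in the other groups. The GAPDH 3' minus 5' difference, a sign of RNA quality, was 1.55 to 1.73 in control arrays, and was largest in fluoxetine 25 replicate 3 (2.36) and sertraline 250 replicate 2 (3.16). All sertraline arrays lay above the control arrays, at 1.95 to 2.17 (25 µg/L) and 1.77 to 3.16 (250 µg/L). The fluoxetine arrays had 1.53 to 2.36 and 1.16 to 1.74, with 1.99 in fluoxetine 25 replicate 2. The same difference for the actin gene acta1 was 6.86 to 7.54 in control. It was 6.83, 8.55 and 8.95 in fluoxetine 25 replicates 1, 2 and 3, and largest in sertraline 250 replicate 2 (9.46).

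**Figure D1:**
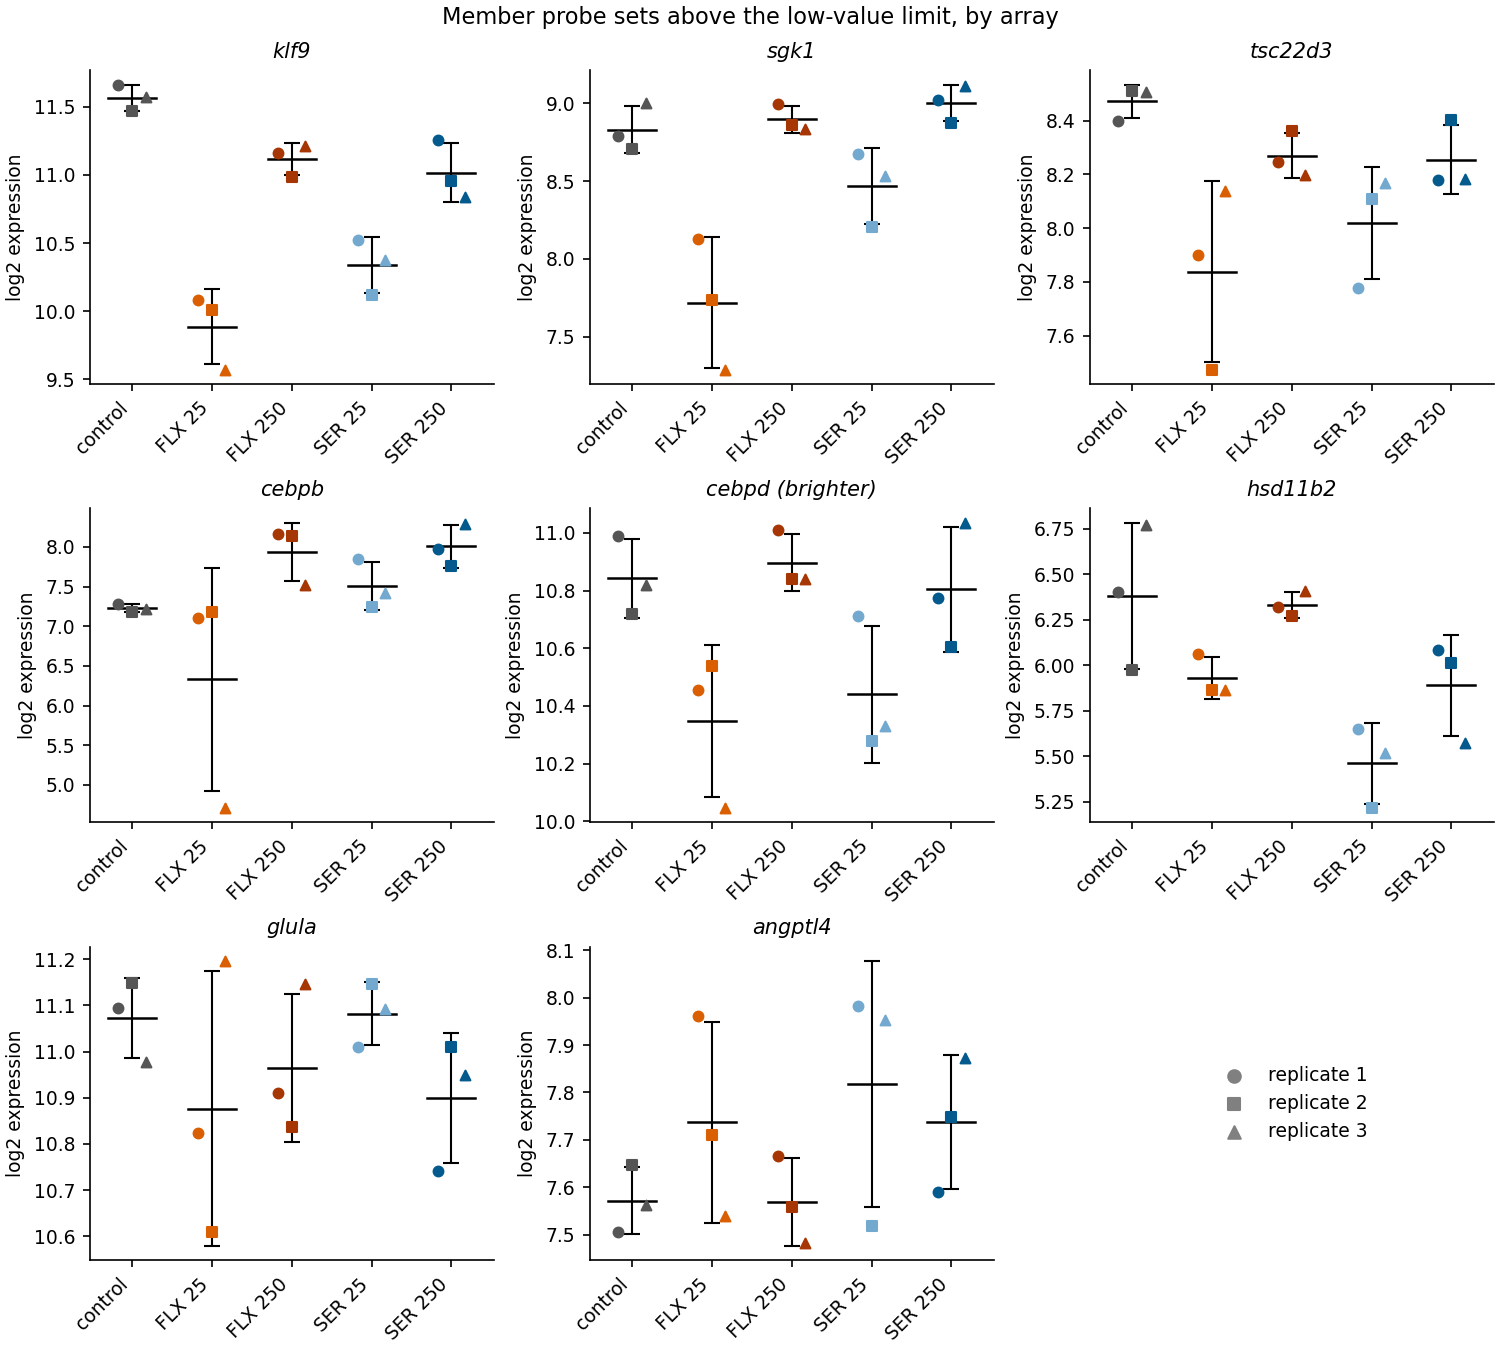
Log2 expression (vertical axes, each with its own range) of the 8 member probe sets above the low-value limit in the 5 groups (FLX is fluoxetine and SER is sertraline, with the concentration in µg/L). Each symbol is 1 array, the horizontal line is the group mean and the bar is ± 1 SD (n = 3). All 12 arrays of larvae exposed to a drug lay below the 3 control arrays for klf9, and fluoxetine 25 replicate 3 lay far below the others for cebpb. The share of all probe sets with all 12 exposed arrays below control is not given here.

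In larvae kept in fluoxetine at 25 µg/L, the genes klf9, sgk1 and tsc22d3 fell relative to control, and no member rose. Thus 3 of 13 member probe sets passed the threshold, where 2.53% of all probe sets did. The median difference was -0.20 over the 13 member probe sets and 0.06 over all probe sets. The second value depended on array scaling, as it was 0.01 with quantile normalization. With that scaling 10 of 13 member probe sets were lower than control, against 8 without it. In 5 of 13 member probe sets all 3 arrays of fluoxetine at 25 µg/L lay below all 3 control arrays, which held for 7.26% of all probe sets. Those 5 were the probe sets of klf9, sgk1, tsc22d3 and cebpb and the brighter one of cebpd.

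The zinc finger transcription factor gene klf9 had log2 values of 11.66, 11.47 and 11.58 in control and 10.08, 10.01 and 9.57 in fluoxetine at 25 µg/L. The groups did not overlap, and replicate 3 was the lowest of the exposed arrays. The fitted level fell by 1.68 ± 0.15 (SE; 3 arrays in each group), which is 3.20-fold, with an adjusted p of 3.90e-05. It kept this call in all 23 alternative fits (adjusted p 7.10e-06 to 0.0117).

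For the kinase gene sgk1, control arrays had 8.79, 8.71 and 9.0001, and the arrays of fluoxetine at 25 µg/L had 8.13, 7.74 and 7.29. All exposed arrays were lower, and they were spread over 0.84 against 0.29 in control. The SD was 0.42 in this group and 0.09 to 0.24 in the others, so the spread shared by all groups is too small for it. The gene fell by 1.11 ± 0.18, a fold of 2.16 (adjusted p = 0.00427). The call ended in 1 of 23 alternative fits, that of the 6 compared arrays alone (adjusted p = 0.144; range over all alternatives 0.000858 to 0.144).

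For tsc22d3 the control arrays had 8.40, 8.51 and 8.51, and the arrays of fluoxetine at 25 µg/L had 7.90, 7.47 and 8.14. The exposed arrays were again all lower, but here replicate 3 was the highest of them and replicate 2 the lowest. The SD of tsc22d3 was 0.34 in this group and 0.06 to 0.21 in the others, so the shared spread is again too small for it. The gene fell by 0.63 ± 0.15, a fold of 1.55 (adjusted p = 0.0392). This call was kept in 8 of 23 alternative fits, with adjusted p from 0.00611 to 0.258. It ended without fluoxetine 25 replicate 1 (0.0633) or 2 (0.102) and without control replicate 1 (0.0670), 2 (0.134) or 3 (0.131), and also without fluoxetine 250 replicate 1, 2 or 3, sertraline 25 replicate 2 or sertraline 250 replicate 1 or 3 (0.0538 to 0.0589). It also ended with the replicate number as a block (0.0577), with quantile normalization (0.0578), with array weights (0.0887) and in the compared arrays alone (0.258). It was kept without fluoxetine 25 replicate 3 (0.00611).

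The probe sets of the CCAAT/enhancer-binding protein genes cebpb and cebpd did not pass at this concentration. For cebpb, which encodes a basic leucine zipper factor of liver, fat and immune cells, the control arrays had 7.29, 7.18 and 7.22 and the exposed arrays 7.10, 7.18 and 4.71. Replicates 1 and 2 lay just below control, and only replicate 3 was far from it. The difference was -0.90 ± 0.50 (adjusted p = 0.317) with replicate 3 and -0.09 without it (adjusted p = 0.809; 0.183 to 0.809 over all alternatives). That array stood apart in other ways: the 5 measured ionocyte and epidermis markers (of 12 listed) had a log2 summed level of 12.55 in it, against 14.43 and 14.57 in the other arrays of the group and 14.12 to 14.42 in control. All 5 of those markers were lower on average at 25 µg/L fluoxetine and 0 passed, where 36.0% of all probe sets were lower. Their part in the cebpb value was not tested. In bulk RNA of whole larvae, fewer cells of a type and less RNA per cell cannot be told apart.

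The brighter cebpd probe set had 10.99, 10.72 and 10.82 in control and 10.45, 10.54 and 10.05 in fluoxetine at 25 µg/L. The groups did not overlap, and replicate 3 was again the lowest. The difference was -0.50 ± 0.15 (adjusted p = 0.120; 95% interval -0.83 to -0.17).

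Of the cortisol-inactivating enzymes, hsd11b2 had 6.40, 5.97 and 6.77 in control and 6.06, 5.86 and 5.86 in fluoxetine at 25 µg/L. Control replicate 2 lay within the exposed arrays, so the groups overlapped. The difference was -0.45 ± 0.19 (adjusted p = 0.223; 95% interval -0.85 to -0.05). The SD of hsd11b2 was 0.40 in control and 0.07 to 0.28 in the other groups. The shared spread is thus too small for control in every hsd11b2 difference from it. The 2 probe sets of hsd20b2 gave 0.06 ± 0.06 and 0.14 ± 0.08 (adjusted p = 0.509 and 0.327), with values between 2.70 and 3.22 on all arrays of both groups.

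Among the remaining members, glula encodes glutamine synthetase, angptl4 a secreted inhibitor of lipoprotein lipase, and errfi1a an inhibitor of epidermal growth factor receptor signalling. None of them passed at 25 µg/L fluoxetine. The difference was -0.20 ± 0.13 for glula (adjusted p = 0.381; 95% interval -0.48 to 0.09) and 0.16 ± 0.13 for angptl4 (adjusted p = 0.450; 95% interval -0.12 to 0.45). For glula the exposed arrays had 10.82, 10.61 and 11.20, and only replicate 3 reached the control values of 10.98 to 11.15. The 2 probe sets of errfi1a gave 0.07 ± 0.06 and 0.06 ± 0.05 (adjusted p = 0.464 and 0.502). All exposed arrays of the first lay above control, and the share of all probe sets for which this held is not given here.

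**Figure D2:**
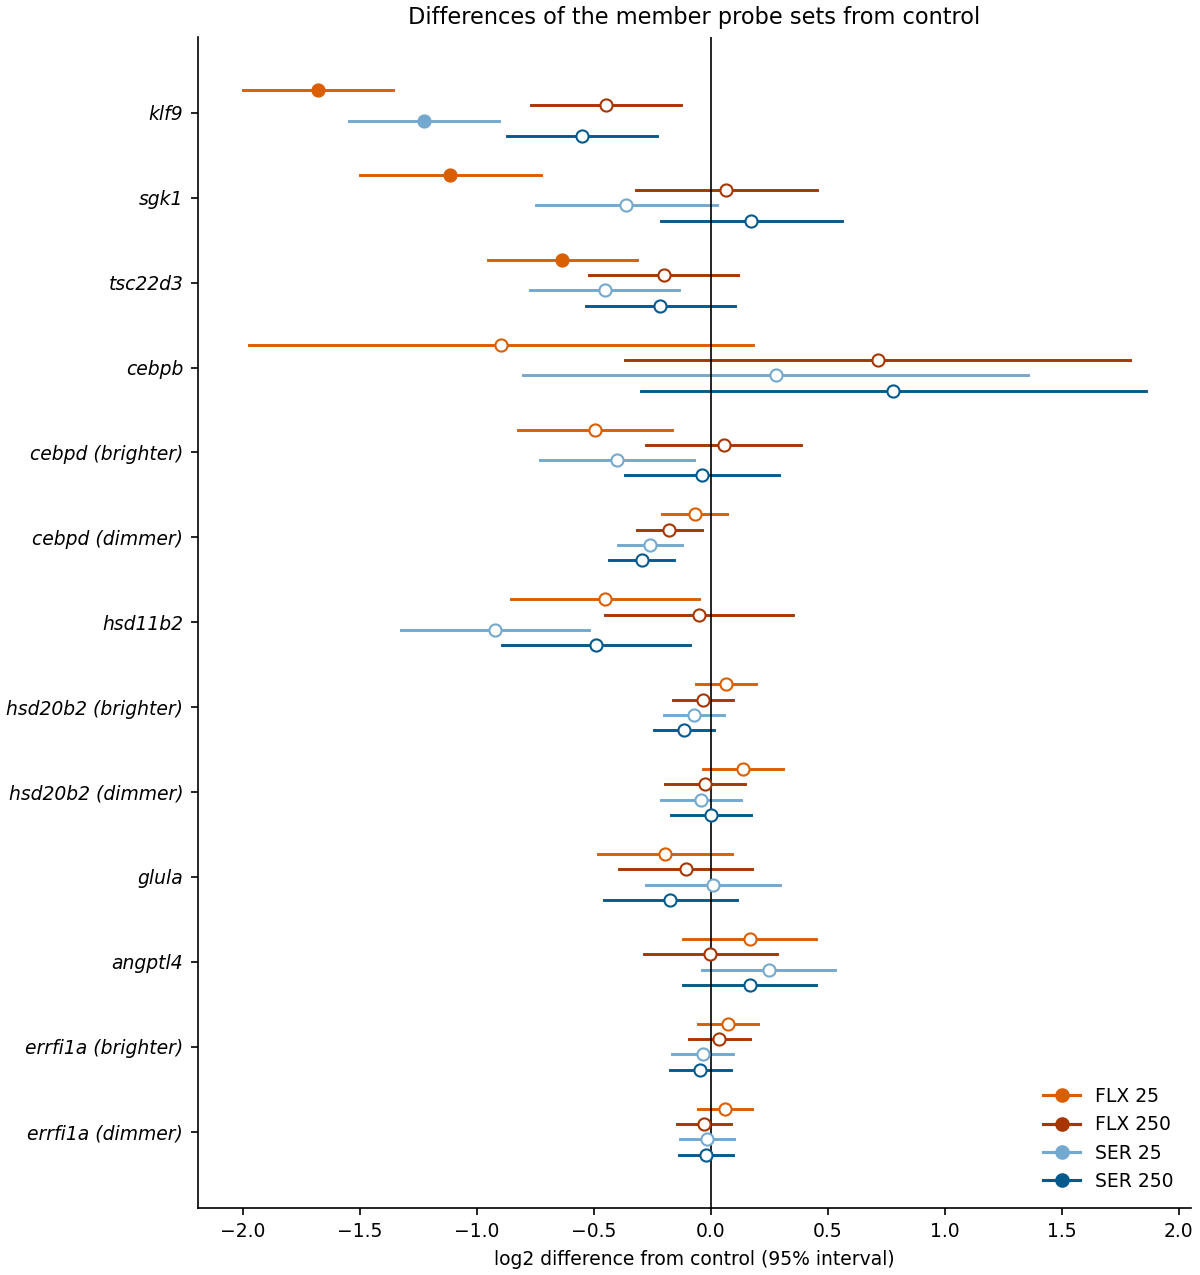
Log2 difference from control (horizontal axis) of all 13 member probe sets in each exposed group, with unadjusted 95% intervals of the limma fit; FLX is fluoxetine, SER is sertraline and the concentration is in µg/L. Filled points passed the threshold: klf9 at -1.68 and -1.23, sgk1 at -1.11 and tsc22d3 at -0.63, all at 25 µg/L.

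At 250 µg/L fluoxetine none of the 13 member probe sets passed in limma, while 1.15% of all probe sets did. At an unadjusted p under 0.05 there were 2 members, klf9 and the dimmer cebpd probe set, both lower, against 10.7% of all probe sets. The median difference was -0.03 over the members and -0.02 over all probe sets. The 3 exposed arrays lay below all 3 control arrays for 3 of 13 member probe sets (klf9, tsc22d3 and the dimmer one of cebpd), as for 7.94% of all probe sets.

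The klf9 values at 250 µg/L fluoxetine were 11.16, 10.99 and 11.21, each below the lowest control array. The difference from control was -0.45 ± 0.15 (adjusted p = 0.239; 95% interval -0.77 to -0.13). For sgk1 the values were 8.996, 8.86 and 8.83, within the control range, and the difference was 0.07 ± 0.18 (adjusted p = 0.978; 95% interval -0.32 to 0.45). The tsc22d3 arrays had 8.25, 8.36 and 8.20 and lay just below control, with a difference of -0.20 ± 0.15 (adjusted p = 0.741). The arrays of cebpb had 8.17, 8.13 and 7.52 and all lay above control, on the other side from the lower concentration. That difference was 0.71 ± 0.50 (adjusted p = 0.723). The share of all probe sets with all 3 arrays above control is not given here, so this position cannot be called particular to cebpb. The SD of cebpb was 0.05 in control and 0.37 at 250 µg/L fluoxetine. It was largest at 25 µg/L fluoxetine, where replicate 3 had 4.71. The spread shared by all groups includes that array, so it is too large for the groups compared here. The missed threshold therefore does not show that cebpb was unchanged. It was also missed in every alternative fit, including that without fluoxetine 25 replicate 3. For hsd11b2 the values of 6.32, 6.27 and 6.41 lay inside the control range, with a difference of -0.05 ± 0.19 (adjusted p = 0.983).

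The same question was asked of sertraline at 25 µg/L. The gene klf9 fell, and it was the only 1 of 13 member probe sets to pass; over all probe sets 0.0645% passed. The 3 exposed arrays lay below all control arrays for 6 of 13 member probe sets, which held for 6.44% of all probe sets. Those 6 were the probe sets of klf9, sgk1, tsc22d3 and hsd11b2 and both of cebpd. The median difference was -0.07 over the members and -0.03 over all probe sets.

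The klf9 values at 25 µg/L sertraline were 10.53, 10.12 and 10.38, all well below the control arrays. The gene fell by 1.23 ± 0.15, a fold of 2.34 (adjusted p = 0.0107). The call was kept in 19 of 23 alternative fits (adjusted p 0.00166 to 0.0808). It ended without sertraline 25 replicate 2 (0.0808), control replicate 1 (0.0624) or control replicate 2 (0.0632) and in the fit of the compared arrays alone (0.0612).

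The hsd11b2 arrays at 25 µg/L sertraline had 5.65, 5.22 and 5.52, all below the control arrays. The difference of -0.92 ± 0.19 (95% interval -1.32 to -0.52) was the largest of the 4 hsd11b2 differences from control, and it did not pass (adjusted p = 0.216). The SD of hsd11b2 was 0.40 in control, so the shared spread behind this interval is too small for that group. For tsc22d3 the values were 7.78, 8.11 and 8.17, with a difference of -0.45 ± 0.15 (adjusted p = 0.864). For sgk1 they were 8.67, 8.20 and 8.53, just below the control arrays, with a difference of -0.36 ± 0.18 (adjusted p = 0.999; 95% interval -0.75 to 0.02). The brighter cebpd probe set had 10.71, 10.28 and 10.33, and its difference was -0.40 ± 0.15 (adjusted p = 0.999). The dimmer one, with values of 3.46 to 3.66 against 3.79 to 3.83 in control, gave -0.26 ± 0.06 (adjusted p = 0.445). The gene cebpb gave 0.28 ± 0.50 (adjusted p = 0.999), with groups that overlapped. Its SD was 0.31 in this group and 0.05 in control, so the shared spread is too large here too. The cebpb difference also missed the threshold in every alternative fit, including that without fluoxetine 25 replicate 3. Adjusted p-values near 1 go here with few passing probe sets in the whole comparison, and they do not show that values were equal.

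Sertraline at 250 µg/L had 0 member probe sets and 0% of all probe sets past the threshold in limma. At an unadjusted p under 0.05 there were 3 members, all lower (klf9, the dimmer cebpd probe set and hsd11b2), against 6.34% of all probe sets. The exposed arrays lay below all control arrays for 2 of 13 member probe sets, klf9 and the dimmer one of cebpd, as for 9.77% of all probe sets. The klf9 values were 11.26, 10.96 and 10.84, and the difference was -0.55 ± 0.15 (adjusted p = 0.391; 95% interval -0.87 to -0.23). The hsd11b2 values were 6.08, 6.01 and 5.57 with a difference of -0.49 ± 0.19 (adjusted p = 0.691). The cebpb arrays had 7.98, 7.75 and 8.29, all above control, with a difference of 0.78 ± 0.50 (adjusted p = 0.839). The share of all probe sets lying above control in this way is again not given here. The SD of cebpb was 0.27 in this group and 0.05 in control, so the shared spread is again too large for them. The cebpb difference also missed the threshold in every alternative fit, including that without fluoxetine 25 replicate 3. For sgk1 the values of 9.02, 8.88 and 9.11 overlapped control (0.17 ± 0.18, adjusted p = 0.853). The dimmer cebpd probe set, of low signal, gave -0.30 ± 0.06 (adjusted p = 0.250).

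The concentrations of each drug were compared to ask whether the response differed between them. For fluoxetine, klf9 and sgk1 were higher at 250 than at 25 µg/L, by 1.23 ± 0.15 (adjusted p = 0.00343) and 1.18 ± 0.18 (adjusted p = 0.0163). Thus 2 of 13 member probe sets passed, where 0.252% of all probe sets did. All 3 arrays at 250 µg/L lay above all 3 at 25 µg/L for 6 of 13 member probe sets, against 4.64% of all probe sets. Besides klf9 and sgk1 these were tsc22d3 (0.43 ± 0.15), cebpb (1.61 ± 0.50), the brighter cebpd (0.55 ± 0.15) and hsd11b2 (0.40 ± 0.19), whose adjusted p-values were 0.192 to 0.266. Without fluoxetine 25 replicate 3 the cebpb difference was 0.80 (adjusted p = 0.111). This comparison shares the fluoxetine 25 arrays with that against control. The sgk1 call ended without fluoxetine 25 replicate 2 (adjusted p = 0.0547) or fluoxetine 250 replicate 1 (0.0873), with GAPDH as a covariate (0.0503) and in the compared arrays alone (0.404; range over all alternatives 0.00174 to 0.404). That of klf9 ended only in the compared arrays alone (0.235; range 0.000708 to 0.235).

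For sertraline, 0 member probe sets and 0% of all probe sets passed between the concentrations in limma. At an unadjusted p under 0.05 there were 4 members, all higher at 250 µg/L (klf9, sgk1, the brighter cebpd and hsd11b2), against 4.86% of all probe sets. The difference was 0.68 ± 0.15 for klf9 (adjusted p = 0.381; 95% interval 0.36 to 1.00), 0.53 ± 0.18 for sgk1 (adjusted p = 0.733) and 0.43 ± 0.19 for hsd11b2 (adjusted p = 0.990). The arrays at 250 µg/L lay above all those at 25 µg/L for klf9, sgk1 and tsc22d3, 3 of 13 member probe sets, as for 5.49% of all probe sets. Those of glula all lay below (-0.18 ± 0.13), and the share of all probe sets lying below is not given here. The klf9 difference passed with array weights (0.58, adjusted p = 0.0351; range over all alternatives 0.0351 to 0.955).

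Ordered by mean, klf9 stood at 11.57 ± 0.10 (SD, n = 3) in control, 11.12 ± 0.12 in fluoxetine 250, 11.02 ± 0.22 in sertraline 250, 10.34 ± 0.21 in sertraline 25 and 9.89 ± 0.28 in fluoxetine 25. Of these neighbours only fluoxetine 250 and sertraline 250 overlapped. For sgk1 the order was sertraline 250 (9.004 ± 0.12), fluoxetine 250 (8.90 ± 0.09), control (8.83 ± 0.15), sertraline 25 (8.47 ± 0.24) and fluoxetine 25 (7.72 ± 0.42). The first 3 of these overlapped each other, and the last 2 lay apart from them and from each other. For hsd11b2 the lowest group was sertraline 25 (5.46 ± 0.22), followed by sertraline 250 (5.89 ± 0.28), fluoxetine 25 (5.93 ± 0.12), fluoxetine 250 (6.33 ± 0.07) and control (6.38 ± 0.40). Only the neighbours fluoxetine 25 and fluoxetine 250 did not overlap in that order. The shares of all probe sets with such orders are not given here.

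The drugs were compared at matched concentration, to ask whether the members responded differently to them. At 25 µg/L, 0 of 13 member probe sets passed in limma, where 2.10% of all probe sets did; at an unadjusted p under 0.05 there were 7 (3 higher and 4 lower with sertraline) against 28.0% of all probe sets. The gene sgk1 was nearest the threshold, higher in all 3 sertraline arrays by 0.75 ± 0.18 (adjusted p = 0.0504; 95% interval 0.36 to 1.14). It passed in 4 of 23 alternative fits: with arrays centred on their median (0.0347), without the lowest 40% of probe sets (0.0324), with the GAPDH covariate (0.0249) and without fluoxetine 25 replicate 1 (0.00951), over a range of 0.00951 to 0.250. The klf9 values were higher with sertraline by 0.45 ± 0.15 (adjusted p = 0.101; 95% interval 0.13 to 0.77). The hsd11b2 values were lower with sertraline by 0.47 on the mean (difference -0.47 ± 0.19, adjusted p = 0.137), without overlap. The share of all probe sets without overlap between the drugs is not given here. These separations therefore cannot be called particular to the members.

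At 250 µg/L, 0 of 13 member probe sets passed between the drugs, where 1.37% of all probe sets did, and 1 had an unadjusted p under 0.05, against 12.02% of all. That was hsd11b2, whose 3 sertraline arrays all lay below the fluoxetine arrays (-0.44 ± 0.19, adjusted p = 0.351). The share of all probe sets separated in this way is not given here. The 95% interval of the difference between the drugs was -0.42 to 0.22 for klf9, -0.28 to 0.49 for sgk1 and -0.33 to 0.30 for tsc22d3, which leaves room for differences of that size. In the interaction of drug and dose, 0 member probe sets passed and 0.00645% of all did (1 probe set, that of fkbp5). At an unadjusted p under 0.05 there were 2 members, klf9 (-0.55 ± 0.21, adjusted p = 0.512) and sgk1 (-0.64 ± 0.25, adjusted p = 0.518), against 9.25% of all probe sets.

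Over the mean of the 4 exposed groups, klf9 fell by 0.98 ± 0.12 from control (adjusted p = 0.00196), and it was 1 of 13 member probe sets that passed, where 0.690% of all probe sets did. Its call was kept in all 22 alternative fits (adjusted p 0.000535 to 0.0218). The test of any difference among the 5 groups was passed by klf9 (adjusted p = 0.000200) and sgk1 (adjusted p = 0.00610), 2 of 13 member probe sets, where 2.79% of all probe sets passed. Next were hsd11b2 (adjusted p = 0.0567) and the dimmer cebpd (0.0660). Without fluoxetine 25 replicate 3, tsc22d3, cebpb and the dimmer cebpd passed as well, 5 probe sets in all. The gene hsd11b2 passed this test without the lowest 40% of probe sets, with array weights and without control replicate 2. The shares of all probe sets that passed in these alternative fits are not given here. The added calls therefore cannot be called particular to the members.

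**Figure D3:**
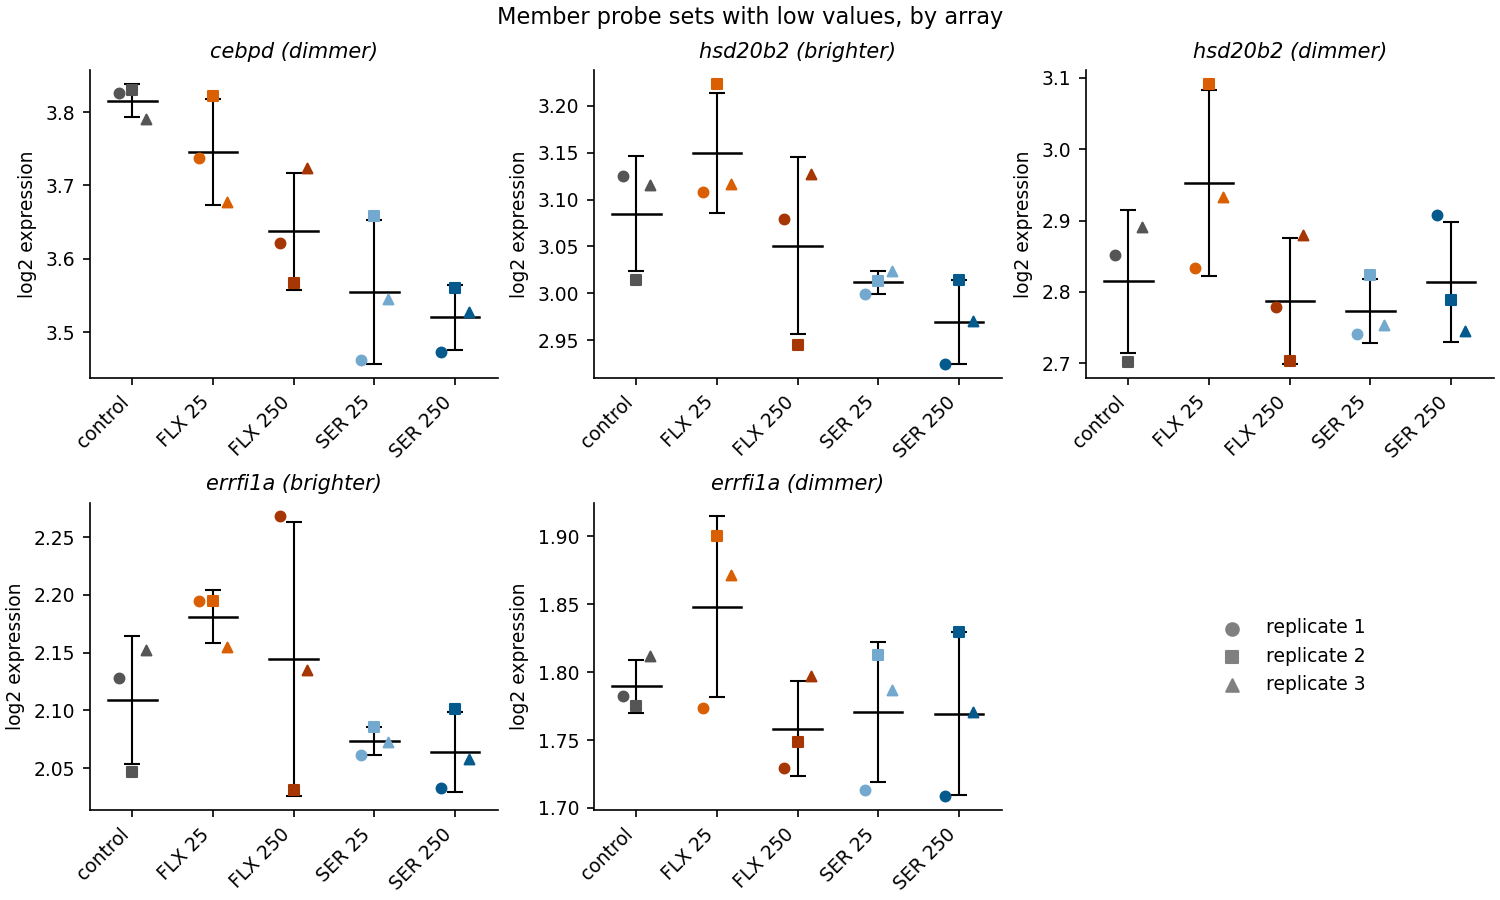
Log2 expression (vertical axes, each with its own range) of the 5 member probe sets below the low-value limit of 3.90, by group; FLX is fluoxetine, SER is sertraline and the concentration is in µg/L. Each symbol is 1 array, the line is the group mean and the bar ± 1 SD (n = 3). The dimmer cebpd probe set had its highest mean in control (3.82), while those of hsd20b2 and errfi1a spanned narrow ranges.

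The 2 cebpd probe sets gave different patterns. The brighter one was lowest in the groups at 25 µg/L (10.35 ± 0.26 and 10.44 ± 0.24) and near control at 250 µg/L (10.90 ± 0.10 and 10.81 ± 0.22 against 10.84 ± 0.14). The dimmer one was 3.82 ± 0.02 in control, 3.75 ± 0.07 and 3.64 ± 0.08 in fluoxetine at 25 and 250 µg/L, and 3.56 ± 0.10 and 3.52 ± 0.04 in sertraline at 25 and 250 µg/L. Their correlation over the 15 arrays was r = -0.03. Values of hsd20b2 ran from 2.70 to 3.22 and those of errfi1a from 1.71 to 2.27 over all arrays, and neither gene passed in a comparison. Only 6.80% and 2.30% of all probe sets had a lower mean than those of errfi1a, and 24.01% and 19.8% than those of hsd20b2. Their low signal limits what differences could be detected.

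**Figure D4:**
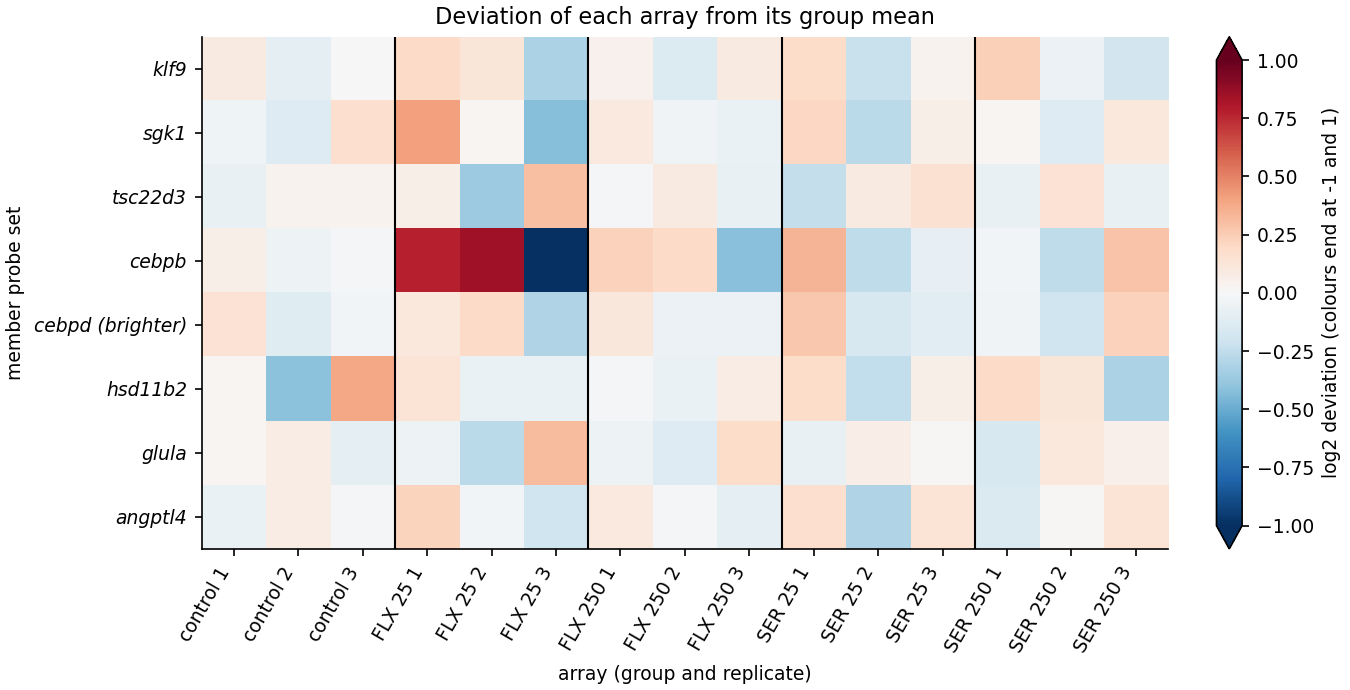
Deviation of each array from the mean of its group (colour, log2; colours end at -1 and 1) for the 8 member probe sets above the low-value limit (rows) in the 15 arrays (columns; FLX is fluoxetine and SER is sertraline, with the concentration in µg/L and the replicate). In fluoxetine 25 replicate 3, klf9, sgk1, cebpb and the brighter cebpd lay below their group mean while tsc22d3 and glula lay above it.

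Within groups the members did not vary as 1 block. In fluoxetine 25 replicate 3, klf9 deviated from the mean of its group by -0.32, sgk1 by -0.43 and cebpb by -1.62, while tsc22d3 and glula deviated by 0.30 and 0.32. In sertraline 25 replicate 2 the deviations of klf9, sgk1, cebpb, brighter cebpd, hsd11b2 and angptl4 were all below 0, at -0.22, -0.27, -0.26, -0.16, -0.24 and -0.30. Those of tsc22d3 and glula were above 0, at 0.09 and 0.06. In that array the 10 measured hepatocyte markers had a log2 summed level of 10.36, against 12.10 and 11.84 in the other arrays of the group and 11.29 to 12.37 in control. In fluoxetine 25 replicate 3 the level was 11.01, against 13.26 and 13.29 in the other arrays of that group. The part of these markers in the deviations was not tested. Over the 15 arrays the deviations of klf9 correlated with those of sgk1 at r = 0.70, of cebpb at 0.61 and of tsc22d3 at -0.62. Without the 3 arrays of fluoxetine at 25 µg/L, the first 2 of these were 0.49 and 0.08 (12 arrays).

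Markers of other tissues in the larvae are given by direction only, since 0 passed the threshold against control. The share of all probe sets lower than control was 36.0% and 58.9% at 25 and 250 µg/L fluoxetine. For sertraline it was 63.8% and 66.6%. These shares are of the values as deposited and are not given here for other array scalings. The 12 measured exocrine pancreas genes (of 17 listed) were all higher on average at 25 µg/L fluoxetine than in control, with 0 past the threshold, and their log2 summed level was 10.73 to 13.44 in that group and 9.39 to 11.01 in control. In the other exposed groups 12 (fluoxetine 250), 10 (sertraline 25) and 11 (sertraline 250) of the 12 were higher than in control. All 10 measured hepatocyte genes (of 15 listed) were higher at both fluoxetine concentrations and lower at 25 µg/L sertraline, while at 250 µg/L sertraline 9 were higher and 1 was lower, with 0 past the threshold in any of these. Of 9 measured intestine genes (of 10 listed), 7 were higher at 250 µg/L sertraline and 8 in each other exposed group, again with 0 past the threshold. The 10 skeletal muscle genes had a log2 summed level between 17.26 and 17.39 on all arrays. Among 6 measured glia genes (of 9 listed), 4 were lower than control at each fluoxetine concentration. At 25 and 250 µg/L sertraline 3 and 5 of them were lower, with 0 past the threshold. The part of these markers in the klf9, sgk1, tsc22d3 and hsd11b2 values was not tested.

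**Figure D5:**
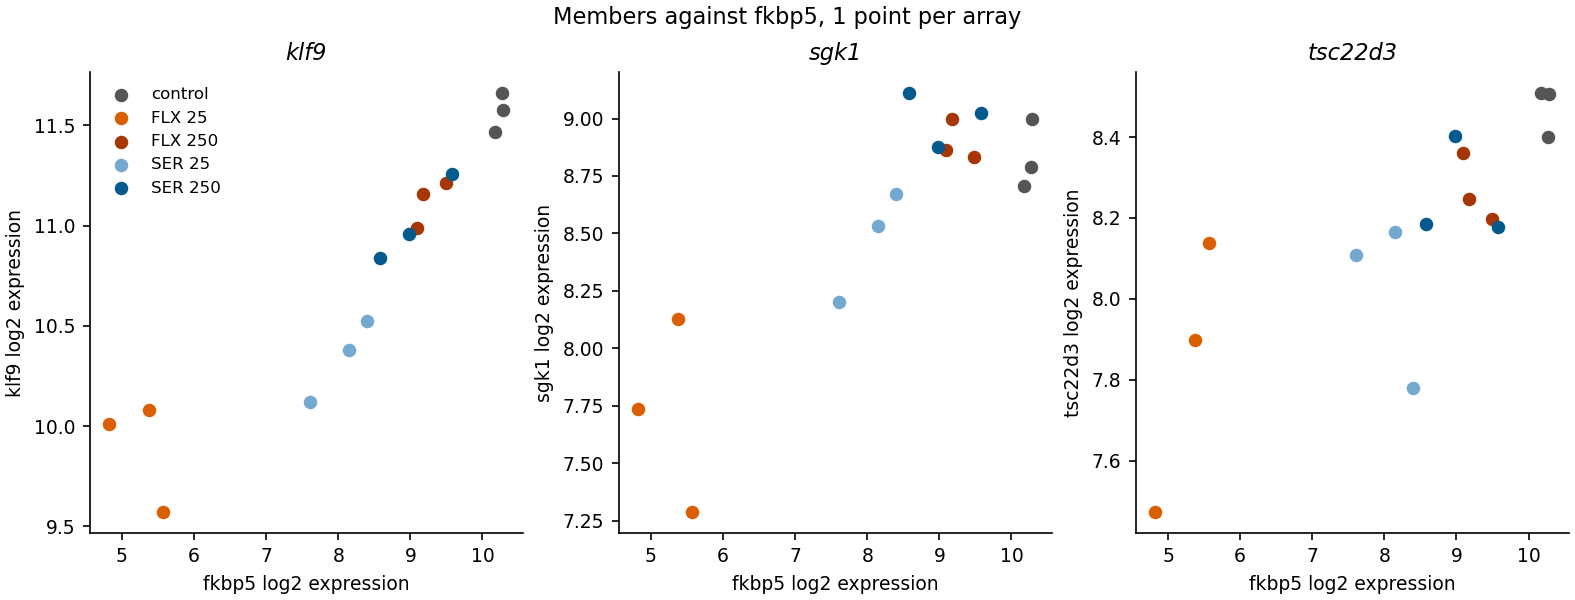
Log2 expression of klf9, sgk1 and tsc22d3 (vertical axes) against that of fkbp5 (horizontal axis) in the 15 arrays, coloured by group; FLX is fluoxetine, SER is sertraline and the concentration is in µg/L. The 3 arrays of fluoxetine at 25 µg/L lie apart at the left, with fkbp5 between 4.82 and 5.56, and the control arrays lie at the right, between 10.18 and 10.28.

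Because the arrays of fluoxetine at 25 µg/L stood apart for fkbp5, its correlation with the members is given first over the other 12 arrays. It describes arrays that share 4 groups. The r was 0.986 with klf9, 0.850 with hsd11b2, 0.695 with tsc22d3, 0.603 and 0.647 with the brighter and dimmer cebpd, and 0.555 with sgk1. It was below 0 with angptl4 (-0.499), cebpb (-0.254) and glula (-0.094), and between 0.00027 and 0.420 with the 4 probe sets of hsd20b2 and errfi1a. Over all 15 arrays several values differed widely from these. There r was 0.928 with klf9, 0.862 with sgk1, 0.782 with tsc22d3 and 0.684 with the brighter cebpd. With cebpb, hsd11b2 and glula it was 0.506, 0.442 and 0.305. The dimmer cebpd (-0.093), angptl4 (-0.324) and the probe sets of hsd20b2 (-0.434 and -0.503) and errfi1a (-0.383 and -0.549) were below 0. For deviations from the group means, over 15 arrays, r was 0.448 with klf9, 0.600 with hsd11b2, 0.146 with tsc22d3 and 0.083 with sgk1. It was below 0 with cebpb (-0.350), both cebpd probe sets (brighter -0.175, dimmer -0.552), both of errfi1a (-0.118 and -0.476) and the brighter hsd20b2 (-0.175). With glula, the dimmer hsd20b2 and angptl4 it was 0.169, 0.049 and 0.008. Among the 3 arrays of fluoxetine at 25 µg/L, the one with the highest fkbp5 value, replicate 3, had the lowest klf9 and sgk1 values, but the highest tsc22d3 value. Over all 15 arrays, which hold the group differences, the genes most like klf9 were tp53inp1 (r = 0.961), bzw1b (0.944) and slc25a25a (0.943). Those most like sgk1 were dhrs13a.2 (0.955), the NF-kappaB inhibitor gene nfkbiab (0.952) and slc25a25a (0.948), which encodes a mitochondrial carrier.

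Lists of related genes were set beside the members. Like the members, they were chosen with earlier results of these data known, so their counts are a description and test nothing. Each listed gene was taken by its probe set of highest mean, unlike the shares over all probe sets. At 25 µg/L fluoxetine, 5 of the 25 other glucocorticoid-responsive genes that were measured (of 38 listed) fell, none rose, and 20 missed the threshold, with a median difference of -0.25 against 0.06 over all probe sets, of which 2.53% passed in either direction. They included fkbp5 (-4.99 ± 0.26, adjusted p = 1.05e-06), the cryptochrome gene cry2 (-1.85 ± 0.11) and nfkbiab (-1.25 ± 0.11). Another was pfkfb4b (-1.65 ± 0.17), which encodes a regulatory enzyme of glycolysis. At 250 µg/L fluoxetine, where 1.15% of all probe sets passed, 2 fell and 1 rose: cry2 (-1.60 ± 0.11), pfkfb4b (-0.81 ± 0.17) and the cytokine signalling suppressor gene socs3b (0.64 ± 0.14). At 25 µg/L sertraline, where 0.0645% of all probe sets passed, 2 fell, fkbp5 (-2.19 ± 0.26) and pfkfb4b (-1.23 ± 0.17), and at 250 µg/L sertraline 0 passed, as over all probe sets. Over the 25 genes the median difference was 0.14 at 250 µg/L fluoxetine, -0.26 at 25 µg/L sertraline and 0.13 at 250 µg/L sertraline, against -0.02, -0.03 and -0.04 over all probe sets.

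Among the 16 measured genes for cortisol synthesis, receptors and receptor chaperones (of 30 listed), each taken by its probe set of highest mean, 1 rose at 25 µg/L fluoxetine and 15 missed the threshold, where 2.53% of all probe sets passed. It was the brightest of 3 nr3c1 probe sets (0.46 ± 0.09, adjusted p = 0.0204), and by these probe sets none of the 16 passed in the other 3 comparisons with control. The nr3c1 probe sets disagreed. At 25 µg/L fluoxetine the others gave -0.07 ± 0.26 and 0.06 ± 0.14 (adjusted p = 0.877 and 0.790). At 250 µg/L fluoxetine the dimmest one, with a mean of 3.70, rose by 0.81 ± 0.14 (adjusted p = 0.0117), while the brightest gave 0.23 ± 0.09 (adjusted p = 0.385) and the third 0.37 ± 0.26 (adjusted p = 0.727). Of 11 measured relatives of the members (26 listed), 1 fell at each fluoxetine concentration and 0 passed at either sertraline concentration, where 2.53%, 1.15%, 0.0645% and 0% of all probe sets passed at 25 and 250 µg/L fluoxetine and 25 and 250 µg/L sertraline. It was hsd17b12a, of the hydroxysteroid dehydrogenase family and known in mammals for fatty acid elongation. It fell by 1.86 ± 0.12 at 25 µg/L (adjusted p = 4.87e-06) and by 1.07 ± 0.12 at 250 µg/L fluoxetine (adjusted p = 0.000936).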

How the data were processed

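The authors deposited log2 values for 15 one-colour Affymetrix arrays, and these were used unchanged; GCRMA and Partek are named in the submitters' processing notes, with roles and versions not given in the sources used here. Per the labels' protocols, RNA of whole pelleted larvae (5 µg per array) was biotin-labelled with a 3' kit. Of 15617 probe sets, 115 Affymetrix controls were left out. Symbols came from the 2016 platform annotation, and the Entrez number of all 13 member probe sets gave the same symbol in RefSeq names of zebrafish assembly GRCz12tu. No coordinates or sequences were used.

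The labels give triplicate beakers, taken as the replicates (n = 3) although no label ties an array to a beaker; p-values measure the spread between these arrays. limma 3.58.1 (R 4.3.3) was fitted with 1 mean per group to all 15 arrays and 15502 probe sets (10 residual and 2.37 prior degrees of freedom), with 11 comparisons, each adjusted by Benjamini-Hochberg over all probe sets. The model was tested on simulated data. Precision is limited by how many arrays there are: the 95% interval of a 2-group difference ran 0.24 each way in the median probe set. Members and gene lists were chosen with earlier results of these data known, and all member probe sets are reported. From the 3 context lists (a gene being taken by its probe set with the highest mean), up to 4 passing genes per comparison with control are named, together with fkbp5 and nr3c1. The genes most alike were the 3 with the highest Pearson r to each member that passed the test of any difference.

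The alternatives tried were a replicate block, fits to the compared groups only, array weights, quantile normalization, median centring, a filter on the lowest 40% of probe sets, the GAPDH difference as a covariate, leaving out the 2 arrays with the largest GAPDH difference, and leaving out each array in turn. Deviations of same-numbered arrays correlated over 0.1 for every number in 1 of 10 pairs of groups. That pair was the sertraline groups (r = 0.144 to 0.183), and over the 10 pairs r ran from -0.323 to 0.396. Between the sertraline concentrations the replicate block left the member count at 0. Without the block 0% of all probe sets passed there, so that count does not bear on pairing. Figures were drawn with matplotlib 3.10.9 in Python 3.11.15.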

Additional observations from a re-analysis of the deposited data

Results flagged for a closer look

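The effect of fluoxetine on klf9 and sgk1 differed between the concentrations: the difference of 250 from 25 µg/L was 1.23 ± 0.15 and 1.18 ± 0.18 on the log2 scale, with adjusted p = 0.00343 and 0.0163 in limma, and all 3 arrays at 250 µg/L were higher than all 3 at 25 µg/L.

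The gene cebpb lay below all control arrays in fluoxetine at 25 µg/L (-0.90) and above all of them in fluoxetine (0.71) and sertraline (0.78) at 250 µg/L. At 25 µg/L fluoxetine 7.26% of all probe sets lay below control in this way, and the shares lying above are not given here. None of these cebpb differences from control passed. For those at 250 µg/L the shared spread is too large, since it includes fluoxetine 25 replicate 3. They also missed the threshold in every alternative fit, including that without this array. The difference between the fluoxetine concentrations did not pass (1.61 ± 0.50, adjusted p = 0.232; 0.80 without fluoxetine 25 replicate 3), and the low value rested on fluoxetine 25 replicate 3, since the difference from control at 25 µg/L was -0.09 without it.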

How the results depend on the processing

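The 7 member values that passed gave 160 values under the alternatives, of which 135 kept call and direction, 25 lost the call and 0 reversed. Fits of the compared arrays alone had fewer samples and used the spread of those groups only. They left 1 member call for fluoxetine 25 against control (3 in the fit of all arrays). For sertraline 25 against control they left 0 (1), and between the fluoxetine concentrations 0 (2). Between the drugs at 25 µg/L, 1 member passed with median centring, with the low-value filter or with the GAPDH covariate, against 0. With the GAPDH covariate, 1 member passed between the fluoxetine concentrations. Quantile normalization and array weights each lowered the calls for fluoxetine 25 against control from 3 to 2, as tsc22d3 did not pass (0.0578 and 0.0887). Quantile normalization gave 2 members over the mean of the exposed groups, adding the dimmer cebpd (-0.19, adjusted p = 0.0437; 0.0437 to 0.394 over its alternatives). Array weights gave 1 for sertraline 250 against control, the dimmer cebpd (-0.29, 0.0428; range 0.0428 to 0.509), 1 between the sertraline concentrations and 5 in the test of any difference, where leaving out the 2 arrays with the largest GAPDH difference gave 4 and the low-value filter gave 3, adding hsd11b2. Leaving out each array in turn gave 0 to 1 members for sertraline 25 against control, 1 to 2 between the fluoxetine concentrations, 0 to 1 between the drugs at 25 µg/L and 2 to 5 in the test of any difference. The shares of all probe sets that passed under each alternative are not given here. Shifts in these counts therefore cannot be called particular to the members. The cause of these shifts was not tested. With the replicate block, the call of tsc22d3 at 25 µg/L fluoxetine ended (-0.63, adjusted p = 0.0577), which left 2 member calls, and no other member call changed; every array correlated best with its own number in 2 of 10 pairs of groups, a hint from the data and not the design. Of 123 member values that did not pass, 43 changed sign in at least 1 alternative (100 fits in all), and these were at most 0.185 in size in the fit of all arrays. Low signal limits hsd20b2, errfi1a and the dimmer cebpd probe set, which the filter removed.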
